A study of Mus musculus with 32 samples.

Results

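The cytosolic ribosomal protein genes are the nuclear genes for the proteins of the ribosome that translates messages in the cytoplasm. They were taken by symbol, as every mouse gene named Rpl or Rps with a number and an optional closing a, x, l or l1, together with Rplp0, Rplp1 and Rplp2 and without any symbol marked as a pseudogene by -ps. The rule found 85 of the 50686 genes in the tables, made up of 43 genes of the large subunit, 29 of the small subunit, 3 of the stalk and 10 paralogs or copies whose symbols end in l or l1. The rule uses symbols and no levels, though the set was chosen with earlier results of these data known. The annotation bore out the label except for Rpl32l, Rpl6l and Rps12l1, which GENCODE M21 lists as processed pseudogenes, and Rps4l, which it lists as a transcribed processed pseudogene. The rule leaves out 6 proteins of the same particle with other names, such as Fau, Rpl36al and Rack1, and these were read as a separate list.

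Polyadenylated RNA was sequenced from crypt cells of the mouse intestine in 32 libraries. Intestinal stem cells were sorted as Lgr5-eGFP high and progenitors as Lgr5-eGFP low, both from cells positive for EpCAM, low or negative for CD24, and negative for CD31, Ter119, CD45 and the dead-cell dye 7AAD. Mice of strain C57BL6 were KO (Cpt1a fl/fl with Villin-CreER and Lgr5-GFP-IRES-CreER) or WT (both drivers with no floxed allele), and they ate the High Fat (HF) or the High Fat Control (HFC) diet. The 8 groups of 4 libraries were HF KO, HFC KO, HF WT and HFC WT stem cells and the same 4 groups of progenitors, and the sexes were balanced by label in every group. All mice carried both Cre alleles, Villin-CreER acts across the intestinal epithelium, and no source used here gives the ages or how Cre was induced. The labels number the replicates without saying whether each came from its own mouse, so the p-values measure the spread between these libraries, which may be in part technical.

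A ribosome holds its proteins in near equal numbers, and the genes for them are transcribed at high levels in growing cells. In mammals their messages start with a run of pyrimidines at the very first base, the terminal oligopyrimidine (TOP) motif, through which the growth kinase mTORC1 and the binding protein Larp1 control translation of the whole set. Crypt stem cells and progenitors divide fast, and protein synthesis takes up a large share of their energy. Cpt1a, the floxed gene of KO mice, encodes a mitochondrial carnitine transferase needed to burn long-chain fatty acids.

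The TOP motif is the sequence feature that ties the set together, so start sites from RefSeq (GRCm38.p6, the build that mm10 names) are shown for 7 members with a pyrimidine run that begins within 10 bases of the annotated start and 1, Rplp0, without. Each line gives 30 bases, from 10 before the annotated start to 19 after it, and capitals mark the first run in that range of a C followed by at least 4 pyrimidines. Runs that begin later stay in lower case. The run marked in Rps27l ends before the annotated start, so it is not part of the annotated message. Another annotated start of Rps27l had no such run.
Rpl7a (chr2:26910797-26910826, plus strand): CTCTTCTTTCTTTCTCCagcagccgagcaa
Rpl27a (chr7:109519185-109519214, plus strand): cgtgagCTCCTCCCTTTTCCCTTTCTgcca
Rpl15 (chr14:18270967-18270996, minus strand): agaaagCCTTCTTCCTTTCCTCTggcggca
Rpl35 (chr2:39005112-39005141, minus strand): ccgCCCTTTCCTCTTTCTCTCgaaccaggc
Rplp2 (chr7:141447641-141447670, plus strand): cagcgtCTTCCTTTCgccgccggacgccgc
Rps6 (chr4:86857348-86857377, minus strand): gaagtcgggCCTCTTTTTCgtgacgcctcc
Rps27l (chr9:66946076-66946105, plus strand): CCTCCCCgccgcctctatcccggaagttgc
Rplp0 (chr5:115559457-115559486, plus strand): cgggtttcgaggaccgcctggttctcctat
RefSeq windows were found for 62 of the 85 members. A C followed by at least 4 pyrimidines began within 10 bases of the annotated start in 40 of them (64.52%), against 34.4% of the 27025 genes with a window. Exactly at the annotated base it was found in 14 members (22.58%), against 3.01% of genes. Of 4 motifs searched on both strands of the 300 bases around the start, the ETS motif CCGGAAG was in 38.71% of members and 9.93% of genes, and the Sp1 motif GGGCGG in 59.68% and 38.2%. The YY1 motif AAGATGG was in 16.13% and 7.28%, and the E-box CACGTG in 9.68% and 8.09%. A match is a run of letters and not a measured start or binding site.

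The shallowest library had 3307711 estimated counts and the deepest 7337425 (median 5655066.5). Cpt1a stood at 18.8 to 30.5 CPM, the depth-scaled count after TMM normalization, in KO libraries, against 118.5 to 345.8 CPM in WT libraries. Lgr5, the marker of the sort, stood at 281.7 to 514.1 CPM in stem cells and 11.9 to 85.5 CPM in progenitors. Epcam was at 1900 CPM or more in every library, and Ptprc (CD45) and Pecam1 (CD31) stayed under 1 CPM. Markers of secretory cells differed widely between the populations: the summed goblet markers reached 254.7 to 873.2 CPM in stem cells and 9478 to 26740 CPM in progenitors, and the Paneth markers 182.8 to 2092 CPM and 3075 to 20610 CPM.

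Levels within the set, in TPM, a unit of transcript abundance, which are per length and can be set side by side between genes, differed widely. Rps19, the small subunit protein most often mutated in human Diamond-Blackfan anaemia, was among the highest at 1591 ± 391 TPM (SD, n = 32), with Rps25 at 1452 ± 242 TPM, Rps18 at 1345 ± 262 TPM and Rplp0 at 1310 ± 155 TPM. Rps19, Rps25, Rps18 and Rplp0 lay within each other's spread over libraries. The 5 highest genes held 24.67% of the TPM of the set. In all, 6 members averaged over 1000 TPM, 62 lay between 100 and 1000 TPM, 12 between 1 and 100 TPM and 5 under 1 TPM, and the median was 313 TPM. By class the median was 375.9 TPM for the small subunit, 300.9 TPM for the large subunit, 436.4 TPM for the stalk and 10.5 TPM for the paralogs and copies.

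**Figure D1:**
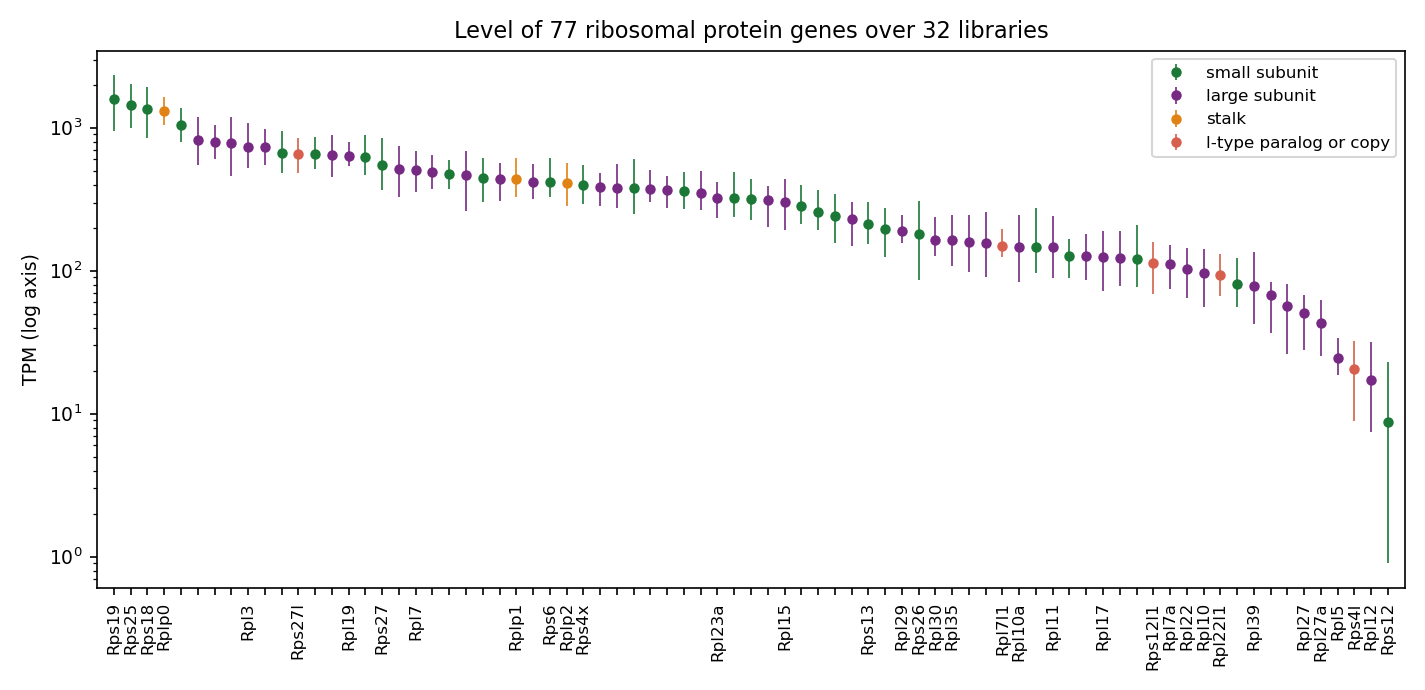
Mean TPM of 77 of the 80 ribosomal protein genes above 1 TPM (log axis), with the genes of the text labelled, ranked from the highest to the lowest, with bars from the lowest to the highest of 32 libraries and colours for the class. Most members lie between 100 and 1000 TPM, Rps19 is at 1591 TPM and Rps12 at 8.71 TPM.

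The low end held proteins that every ribosome carries. Rps12 was at 8.71 ± 5.50 TPM, Rpl12 at 17.2 ± 5.53 TPM, Rpl5 at 24.7 ± 4.49 TPM and Rpl27a at 42.9 ± 10.3 TPM (SD, n = 32). Rpl5, with Rpl11, carries the 5S RNA into the large subunit and binds Mdm2, the inhibitor of p53, when ribosome assembly fails. Rps12l1, the copy annotated as a pseudogene, was listed far above Rps12, at 113 ± 22.5 TPM, and in estimated counts the copy had 150.7 per library and Rps12 19.1. Not one 50-base stretch of Rps12l1 transcripts was unique to it, and 35.41% of those of Rps12 were. The split of reads between the pair is therefore uncertain. Pseudogenes that share 50-base stretches with Rpl5 had 2377 counts per library, against its own 126.81. Those of Rpl12 had 596.84 against 70.03, and those of Rpl27a 286.62 against 156.06. The levels of Rpl5, Rpl12 and Rpl27a are thus uncertain too, and the part of shared reads in them was not tested.

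Such sharing was common in the set. Over the transcripts of GENCODE M21 the median member had 64.86% of its 50-base stretches to itself, 23 of 85 members had under 50%, and 10 had at least 90%. Rpl3l and Rpl39l shared none. Genes assigned to a member as pseudogenes by shared 50-base stretches numbered 912, and their counts came to 22.29% of the members' counts. The 6 genes named as pseudogenes of Rpl10 had more counts, 1469 per library, than Rpl10, with 275. Read length is not given in the sources used here, and 50 bases was a choice made here.

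The paralogs fell into expressed and nearly silent genes. Rps27l, which in mouse and human responds to p53, had 660 ± 87.4 TPM, beside 553 ± 111 TPM for Rps27, a small subunit protein with a zinc finger. Rpl7l1 had 149 ± 17.9 TPM (SD, n = 32), beside 509 ± 81.4 TPM for Rpl7. Rpl22l1 had 93.3 ± 16.5 TPM, beside 102 ± 17.6 TPM for Rpl22, which in mouse is known to hold the Rpl22l1 message down. Rps4l had 20.7 ± 6.46 TPM, beside 399 ± 60.3 TPM for Rps4x. Rpl10l and Rpl39l, known from the male germ line, were listed at 0 in every library, and Rpl3l, a paralog of heart and skeletal muscle, averaged 0.121 TPM with a highest value of 1.10 TPM. Rpl32l and Rpl6l averaged 0.178 and 0.337 TPM. These 5 genes failed the filter on low counts, and the other 80 members passed it in every fit and were tested.

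Reads of the set made up 1.47% ± 0.20 of the estimated counts in stem cells and 1.29% ± 0.12 in progenitors (SD, n = 16 each), with ranges of 1.21% to 1.98% and 1.02% to 1.47% that overlapped. In HF KO stem cells the 4 libraries held 1.98%, 1.24%, 1.37% and 1.51%, in HFC KO stem cells 1.68%, 1.61%, 1.35% and 1.37%, in HF WT stem cells 1.59%, 1.21%, 1.32% and 1.67%, and in HFC WT stem cells 1.40%, 1.49%, 1.35% and 1.45%. In progenitors the shares were 1.28%, 1.33%, 1.39% and 1.15% for HF KO, 1.40%, 1.37%, 1.25% and 1.47% for HFC KO, 1.37%, 1.19%, 1.13% and 1.22% for HF WT, and 1.39%, 1.35%, 1.02% and 1.39% for HFC WT. Within each population every diet and genotype pair of groups overlapped, and HF KO stem cells spread most widely. No test was run on the share. As a share of summed TPM the means were 3.69% ± 0.38 in stem cells and 2.98% ± 0.28 in progenitors. A share falls when other messages rise, and the secretory markers given above were higher in progenitors, where their part in the lower share was not tested. After TMM scaling, which allows for such messages, the summed level ran from 11130 to 19520 CPM in stem cells and from 10960 to 15230 CPM in progenitors. In bulk RNA, fewer cells of a type and less RNA per cell cannot be told apart.

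**Figure D2:**
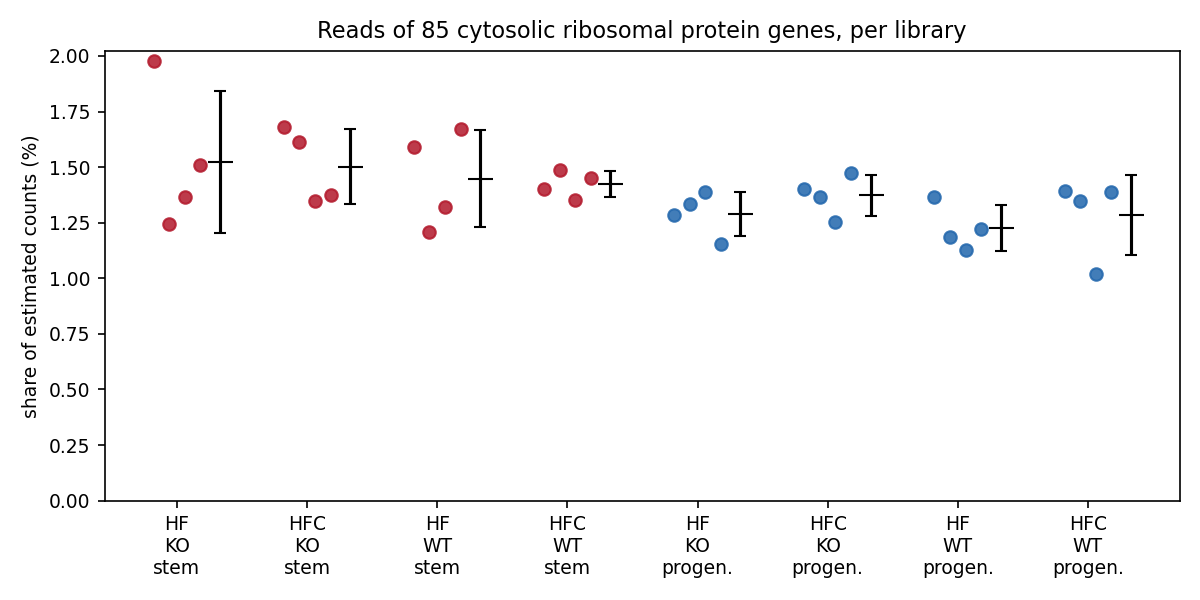
Share of each library's estimated counts (%, axis from 0) held by the 85 ribosomal protein genes, with 1 point per library and bars for the mean and SD of 4 libraries, stem cells in red and progenitors in blue. Shares run from 1.21% to 1.98% in stem cells and from 1.02% to 1.47% in progenitors, and the HF KO stem cell library at 1.98% stands above the other 31.

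The members moved as a block between libraries of the same group. In library a of the HF KO stem cells 79 of 80 members lay above their group mean, with a median of 0.49 on the log2 CPM scale, and in library b of the same group 1 of 80 did, with a median of -0.34. In HF WT stem cells the count was 77 of 80 in library d (median 0.29) and 2 of 80 in library b (median -0.29). In library c of the HFC WT progenitors, the shallowest of all at 3307711 counts, it was 6 of 80 (median -0.35). Of the 32 libraries, 10 had at least 70 members above the group mean and 9 had at most 10, while 47.66% to 54.05% of all genes lay above. The column headers carry serial numbers in 4 runs of 8 libraries, 1 of each group, which the letters a to d follow. The median of the 80 members was below 0 in 7 of the 8 libraries lettered c (-0.35 to 0.14) and in 2 of the 8 lettered a (-0.009 to 0.49). What the runs stand for is not given in the sources used here, and their part in this movement was not tested. The largest of these medians lie above the members' median in every diet and genotype comparison that follows, where it stayed between -0.10 and 0.10.

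Other short messages moved the same way. The 2349 tested genes outside the set with a mean transcript length under 1000 bases had library medians from -0.16 to 0.23, with the sign of the members' median in 26 of 32 libraries, whereas the 10630 longer genes had medians from -0.04 to 0.05. In the HF KO stem cell library with 79 members high, the short genes had a median of 0.23, the 6 ribosomal proteins outside the rule 0.46, the 19 translation factors and other TOP messages 0.32, the 78 mitochondrial ribosomal proteins 0.30 and the 44 genes of ribosome assembly 0.10. Its summed Paneth markers stood at 607.7 CPM, the lowest of its group, and its enterocyte markers at 1467 CPM, the highest of the 16 stem cell libraries, beside 1022 to 1059 CPM in the others of its group. The part of transcript length, of depth and of cell type in this movement was not tested.

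**Figure D3:**
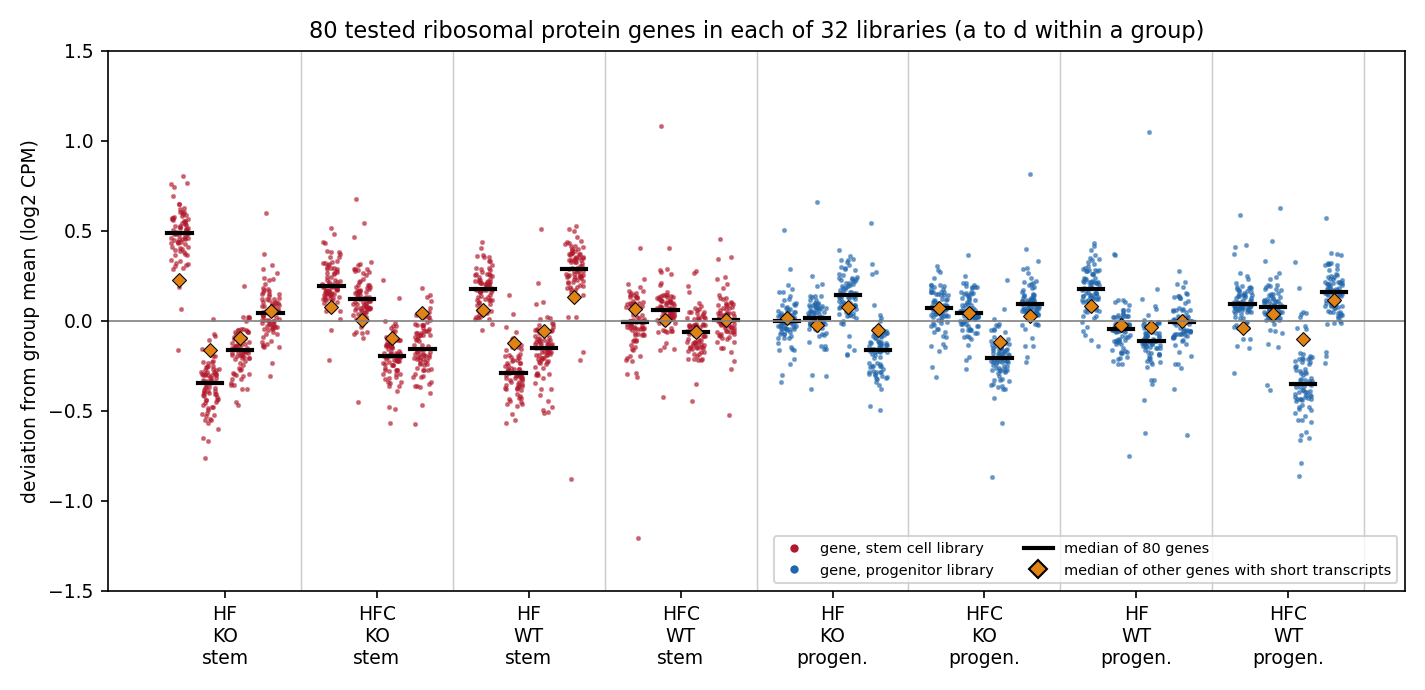
Deviation of each of the 80 tested ribosomal protein genes from its group mean (log2 CPM) in each of 32 libraries, with black bars for their median and orange diamonds for the median of the 2349 other genes with transcripts under 1000 bases. Whole columns shift up or down, from a median of -0.35 to 0.49, and the diamonds shift the same way to a lesser degree in most libraries.

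Stem cells against progenitors, over all genotypes and diets, was the comparison with the most libraries, 16 a side. Of the 80 members 6 were higher in stem cells and 7 lower, 13 in all or 16.25%, whereas edgeR called 63.5% of the 13088 genes tested (32.5% higher and 31% lower, quasi-likelihood test, Benjamini-Hochberg adjusted p under 0.05). No member had stem cell libraries all above or all below the progenitor ones, as 3.25% and 6.94% of genes did. The members' median log2 fold change was -0.0067, beside 0.025 over all genes, and the members ranged from -0.46 to 0.33. Each of the 80 changed by less than 0.5 on the log2 scale, as did 70.96% of all genes, and for 78 the 95% interval lay within 1.5-fold in either direction, as it did for 59.63% of genes. The result depended on the scale. In limma on the deposited log2 TPM, where the median of all genes moved to 0.27 and that of the members to 0.27, 59 members were called higher and 1 lower, beside 7625 genes higher and 1988 lower, against 4259 and 4056 by edgeR. Without library a of the HF KO stem cells edgeR called 23 members, 5 higher and 18 lower. With the runs of header numbers as a block it called 19, 7 higher and 12 lower, the 13 above among them.

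**Figure D4:**
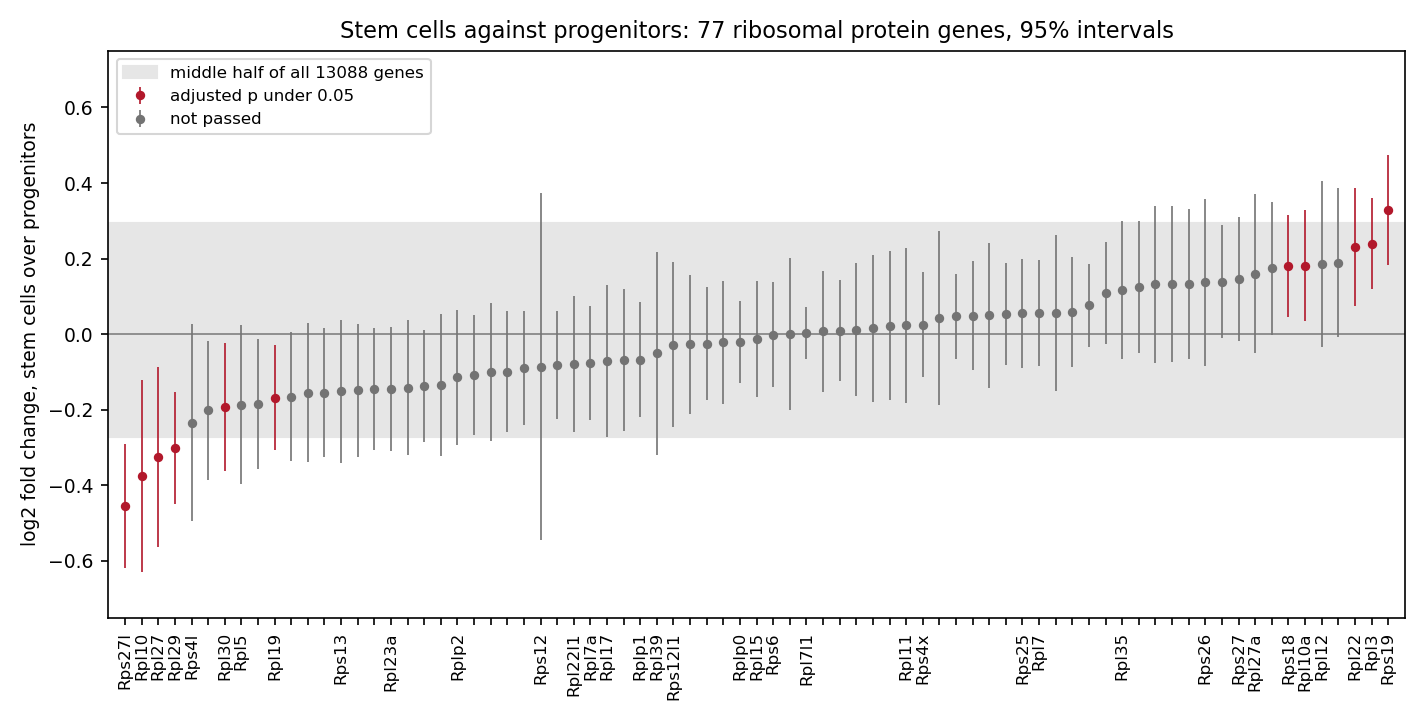
Log2 fold change of 77 of the 80 ribosomal protein genes, stem cells over progenitors (edgeR, TMM scaling), with the genes of the text labelled, in rising order with 95% intervals, red where the adjusted p is under 0.05. The grey band from -0.27 to 0.29 is the interquartile range of all 13088 genes, and nearly all members lie inside it.

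Rps27l stood furthest down. It ran from 123.7 to 236.2 CPM with a median of 170.8 CPM in the 16 stem cell libraries, and from 165.1 to 292.5 CPM with a median of 237.0 CPM in the 16 progenitor libraries. The ranges overlapped, and most progenitor libraries were above most stem cell libraries. The log2 fold change was -0.46 ± 0.08 (SE, adjusted p = 1.4e-05 by edgeR), and it stayed negative on the TPM scale (-0.17, adjusted p = 0.0185 by limma). Rps27l is read with little doubt, since 83.84% of its 50-base stretches are its own and the genes that share the rest had 2.09 counts per library.

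Set against its parent within each library, which removes library-wide shifts, the paralog separated the populations. The ratio of Rps27l to Rps27 TPM was 0.981 ± 0.096 in stem cells (range 0.840 to 1.19) and 1.502 ± 0.204 in progenitors (range 1.27 to 2.02, SD, n = 16 each), with no overlap. The log2 difference was -0.61 ± 0.06 (two-sided permutation test with 100000 resamples, p = 2e-05, the smallest it can give, 0.0001 adjusted over 5 pairs). By group the ratio averaged 0.976 in HF KO, 0.993 in HFC KO, 1.05 in HF WT and 0.911 in HFC WT stem cells, and 1.64, 1.42, 1.57 and 1.37 in the same order in progenitors. Rps27 alone had a median of 115.2 CPM in stem cells and 107.0 CPM in progenitors and did not pass (log2 fold change 0.145 ± 0.080, adjusted p = 0.116 by edgeR). Rps27 is read with less certainty than Rps27l, since only 53.82% of its 50-base stretches are its own. The genes that share the rest had 118.5 counts per library, against its own 626.9. None of the other 4 pairs passed: Rpl22l1 over Rpl22 was 0.895 ± 0.135 and 0.953 ± 0.154 (permutation p = 0.300), Rpl7l1 over Rpl7 0.294 ± 0.054 and 0.299 ± 0.032 (permutation p = 0.588), and Rps4l over Rps4x 0.048 ± 0.016 and 0.058 ± 0.019 (permutation p = 0.186). Rps12l1 over Rps12 had permutation p = 0.463.

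Other lower members belong to the core ribosome. Rpl29 had a median of 74.2 CPM in stem cells (61.9 to 114.4) and 96.2 CPM in progenitors (73.9 to 109.1), a log2 fold change of -0.30 ± 0.07 (SE, adjusted p = 0.000641 by edgeR). The populations overlapped, with most stem cell libraries below. Rpl19 changed by -0.17 ± 0.07 (adjusted p = 0.0318) and Rpl30 by -0.19 ± 0.08 (adjusted p = 0.0421). Rpl19 and Rpl30 turned positive on the TPM scale, and Rpl29, Rpl10 and Rpl27 lost their call there. Rpl10, which is added last as the large subunit matures, changed by -0.37 ± 0.12 (adjusted p = 0.00999), and with its sequence-matched pseudogenes added in it changed by -0.17 with an adjusted p of 0.397, while it kept its call with those that carry its name added instead. Rpl27 changed by -0.32 ± 0.12 (adjusted p = 0.0161) and by -0.19 (adjusted p = 0.0966) with its named pseudogenes added. Rpl19 and Rpl30 also lost their call with copies added in either way and without the filter on low counts. With 1 library left out at a time, Rpl19 lost its call in 9 of 32 fits (adjusted p from 0.0504 to 0.0599 by edgeR) and Rpl30 in 18 of 32 (0.0524 to 0.0762).

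Of the 6 higher members, Rps19, Rpl3, Rpl22, Rpl10a and Rps18 kept their direction on the TPM scale and with copies added. Rps19 had a median of 504.0 CPM in stem cells (399.6 to 690.2) and 407.0 CPM in progenitors (289.9 to 487.2), a log2 fold change of 0.33 ± 0.07 (SE, adjusted p = 0.000187 by edgeR). Rpl3, which lies next to the peptidyl transferase centre, had 650.6 CPM (473.0 to 929.3) and 564.1 CPM (477.5 to 617.6), or 0.24 ± 0.06 (adjusted p = 0.000771). In both genes the populations overlapped. Rpl22, which binds RNA and has a paralog of its own, changed by 0.23 ± 0.08 (adjusted p = 0.00987), Rpl10a by 0.18 ± 0.07 (adjusted p = 0.0280) and Rps18 by 0.18 ± 0.07 (adjusted p = 0.0187). Rpl10a missed the threshold by edgeR without library a of the HF KO stem cells (adjusted p = 0.0539), library a of the HF WT stem cells (0.0548) or library d of the HF KO progenitors (0.0529). The stalk proteins, which draw elongation factors to the ribosome, did not pass: the log2 fold change was -0.02 for Rplp0, -0.07 for Rplp1 and -0.11 for Rplp2.

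Within each genotype and diet the same comparison rests on 4 libraries a side. In HF KO mice edgeR called 3 members higher in stem cells, Rpl10a (0.46 ± 0.14) and Rpl3 (0.32 ± 0.12) among them, and Rps27l lower (-0.49 ± 0.16, adjusted p = 0.0211), 4 of 80 beside 31.3% of genes. In HFC KO mice Rps27l (-0.45 ± 0.16, adjusted p = 0.0284) and Rpl23a (-0.41 ± 0.16, adjusted p = 0.0442) were lower, 2 of 80 beside 36.8% of genes. In HF WT mice Rps19 was higher (0.37 ± 0.14, adjusted p = 0.0386), 1 of 80 beside 37.4% of genes. In HFC WT mice Rpl29 (-0.51 ± 0.15), Rps27l (-0.50 ± 0.16), Rpl19 (-0.36 ± 0.14) and Rps13 (-0.46 ± 0.19) were lower, 4 of 80 beside 41.4% of genes. Rps27l was thus lower in stem cells in 3 of the 4 pairs and had -0.39 ± 0.16 in the fourth (adjusted p = 0.0580). On the TPM scale limma called 28, 21, 39 and 26 members in HF KO, HFC KO, HF WT and HFC WT mice, every one of them higher in stem cells, so that Rps27l was not called there. In fits of the 2 groups alone edgeR called 0 members in HF KO mice and 11 in HFC WT mice, 2 higher and 9 lower. With the runs of header numbers as a block the count was 5 in HF KO, 4 in HFC KO, 2 in HF WT and 7 in HFC WT mice, with every member named above still called. In HF KO mice the calls of Rpl10a and Rpl3 were lost without library a of the stem cells, the one in which 79 of 80 members were high, and that of Rps27l without library b or c of the stem cells or c of the progenitors. Without library d of the HF KO progenitors Rps27l alone was called, and without their library a Rps27l and Rpl10a. In HFC KO mice none was left without library c of the stem cells or a or b of the progenitors, 1 without library d of either population, and 4 were made without library c of the progenitors. In HF WT mice none was left without library a of the stem cells or b, c or d of the progenitors, and 2 were made without library b or d of the stem cells. In HFC WT mice 2, Rpl29 and Rps27l, were left without library a or c of the stem cells or a or b of the progenitors, and Rps27l lost its call without library d of the progenitors. Rps13 lost its call there in 7 of 8 such fits (adjusted p from 0.0607 to 0.113 by edgeR), and Rpl19 in 5 of 8 (0.0580 to 0.1005).

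No member passed when the difference between populations was compared between diets or between genotypes. The members' median was 0.13 for HF minus HFC, with 76 of 80 positive beside 49.34% of all genes, and 0.03 for KO minus WT. edgeR called 0 of 13088 genes in both (0% background), with 0 of 80 members at an unadjusted p under 0.05 in either, beside 5.24% of genes for diet and 3.0% for genotype, and DESeq2 and limma called no member. The 76 signs are not independent, because the members move together from library to library.

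The genes around the ribosome did not share 1 direction between stem cells and progenitors, where 32.5% of all genes tested were higher and 31% lower. Several of the counts that follow, such as 5 and 5 of 19 or 6 and 5 of 16, lie near those shares, and nothing is read from them. Of the 6 ribosomal proteins outside the rule 3 were lower in stem cells, Rpl36al (-0.64 ± 0.09), Fau (-0.43 ± 0.10) and Rack1 (-0.22 ± 0.06, all adjusted p under the threshold by edgeR), and the other 3 did not pass. Of 19 translation factors and other TOP messages 5 were higher, among them the poly(A) binding protein Pabpc1 (0.43 ± 0.05), Nap1l1 (0.56 ± 0.07) and the elongation factor Eef2 (0.23 ± 0.04), and 5 were lower, among them Eef1d (-0.25 ± 0.07). Of 44 genes of ribosome assembly 17 were higher, such as the box C/D protein Nop56 (0.34 ± 0.04) and the RNA polymerase I subunits Polr1a (0.44 ± 0.07) and Polr1b (0.37 ± 0.05), and 7 lower, such as Eif6 (-0.52 ± 0.05) and Bysl (-0.53 ± 0.08), with a median of 0.09. Of 16 genes of mTORC1 and Myc control 6 were higher, Myc among them (0.80 ± 0.07), and 5 lower, including Mycn (-1.01 ± 0.10) and the translation repressor Eif4ebp1 (-0.46 ± 0.07). The 78 mitochondrial ribosomal proteins stood apart from the cytosolic ones, with 62 lower in stem cells and 1 higher and a median of -0.26, beside 7 lower and 6 higher of 80 and a median of -0.0067. The difference between those lists was not tested. Beside all of these, 10 of 10 stem markers were higher in stem cells, all 9 goblet, 8 Paneth, 9 enteroendocrine and 7 tuft markers and 8 of 9 enterocyte markers were lower, and 2 of 7 proliferation markers were higher. None of the markers in those lists was at 0 everywhere. Proliferation markers summed to 1401 to 2015 CPM in stem cells and 1151 to 1651 CPM in progenitors. The part of the mix of cell types in these differences was not tested. All counts of lists here are by edgeR with TMM scaling. The lists were not read on the TPM scale, where the median of all genes lay higher.

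In stem cells neither diet nor genotype moved a member past the threshold. edgeR called 0 of 80 members for HF against HFC in WT mice, beside 0.25% of 12409 genes, and 0 of 80 in KO mice, beside 0.0645%. It called 0 of 80 for KO against WT on the HF diet, beside 0.443% of genes, and 0 of 80 on the HFC diet, beside 0.242%. At an unadjusted p under 0.05 the counts were 0, 0, 1 and 0 members in that order, beside 11.7%, 4.71%, 6.38% and 4.73% of genes, and DESeq2 and limma called none. The members' median log2 fold changes were 0.08, 0.05, 0.07 and 0.10, against 0.0055, 0.010, -0.0021 and -0.0006 for all genes. The fold change was positive in 60, 60, 61 and 69 of 80 members, beside 51.09%, 53.01%, 49.53% and 49.82% of genes. These signs are not independent, because the members move together from library to library. The medians were smaller than the shifts of the whole set between replicate libraries of HF KO stem cells. Those shifts are of single libraries, whereas a comparison sets means of 4 libraries side by side. In HFC WT stem cells, which enter the first and last comparison, the library medians ran only from -0.06 to 0.06, less than the 0.08 and 0.10 there. The 95% intervals lay within 1.5-fold for 63, 70, 63 and 61 members, beside 62.37%, 65.9%, 64.53% and 66.03% of genes. Larger changes are thus outside the intervals of most members, but smaller ones are not. The interaction of diet and genotype called no member and no gene (0% background), with 0 members at an unadjusted p under 0.05 beside 3.58% of genes.

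Single members in stem cells show how wide the spread was. Rpl10a had the smallest p in KO against WT on the HF diet, with 139.3, 79.3, 87.1 and 93.9 CPM in HF KO and 92.8, 60.3, 83.9 and 79.3 CPM in HF WT stem cells, a log2 fold change of 0.34 ± 0.15 (adjusted p = 0.752). One HF KO library lies far above the rest and the groups overlap. On the HFC diet Rps26 had 92.8, 84.1, 74.3 and 70.9 CPM in KO and 67.5, 68.2, 58.8 and 67.2 CPM in WT stem cells, or 0.29 ± 0.22 (adjusted p = 0.9998). It was the only one of 80 members whose libraries did not overlap there, beside 2.26% of genes with all libraries above. For HF against HFC the smallest p was that of Rpl7l1 in WT mice (0.17 ± 0.08, adjusted p = 0.461) and of Rps4l in KO mice (-0.52 ± 0.28, adjusted p = 0.999). Rpl7l1 is the mammalian relative of a yeast assembly factor rather than a protein of the finished ribosome.

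In progenitors 1 member passed the test for HF against HFC in KO mice, beside 0.313% of the 12460 genes tested, and that was Rps4l, lower on the HF diet as 0.0722% of genes were. It had 5.66, 5.84, 9.30 and 9.20 CPM in HF KO progenitors and 15.9, 18.3, 13.7 and 13.9 CPM in HFC KO progenitors. All 4 HF libraries lay below all 4 HFC libraries, as for 2.42% of genes. The mean was 7.50 ± 2.02 CPM against 15.4 ± 2.14 CPM (SD, n = 4 each), a log2 fold change of -1.06 with a 95% interval of -1.502 to -0.62 (adjusted p = 0.0368 by edgeR). The call was lost when HF KO library a or b or HFC KO library a, b or d was left out, with adjusted p-values from 0.0801 to 0.174, and in a fit of the 2 groups alone (adjusted p = 0.0682). Rpl7a was the other member with all HF libraries below, at 63.6 ± 6.57 CPM against 71.4 ± 1.17 CPM, and it did not pass (adjusted p = 0.660).

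Rps4l lies at chr6:148354656-148355598 on the plus strand of mm10 and is annotated as a transcribed processed pseudogene, a reinserted copy of a spliced message of the small subunit protein Rps4. It averaged 64.6 counts per library, 82.03% of its 50-base stretches were unique to it, and the 1 gene that shares the rest had 0 counts. In WT progenitors it had 16.7, 12.5, 13.9 and 7.72 CPM on the HF diet and 15.2, 14.7, 15.96 and 15.9 CPM on the HFC diet. In stem cells it had 7.01, 5.66, 8.01 and 12.25 CPM in HF KO, 11.8, 14.4, 9.94 and 11.1 CPM in HFC KO, 13.5, 9.85, 14.6 and 5.27 CPM in HF WT and 9.47, 10.7, 9.80 and 15.45 CPM in HFC WT libraries. The HF KO group was lowest in both populations and overlapped with HF WT in both. For KO against WT on the HF diet its log2 fold change in progenitors was -0.78 ± 0.21 (adjusted p = 0.124), and the interaction of diet and genotype was -0.79 ± 0.29 (unadjusted p = 0.0147 and adjusted p = 0.969 by edgeR). Its parent Rps4x changed by -0.07 for diet in KO progenitors. No marker of the stem, goblet, Paneth, enteroendocrine, tuft, enterocyte or proliferation lists passed the test in that comparison. The list sums were not tested. Summed Paneth markers ran from 11990 to 20610 CPM in HF KO and from 3075 to 10110 CPM in HFC KO progenitors. Summed enterocyte markers ran from 4062 to 6558 CPM and from 1058 to 3359 CPM, while the sums of the other lists named overlapped. The part of the mix of cell types in the change of Rps4l was not tested.

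**Figure D5:**
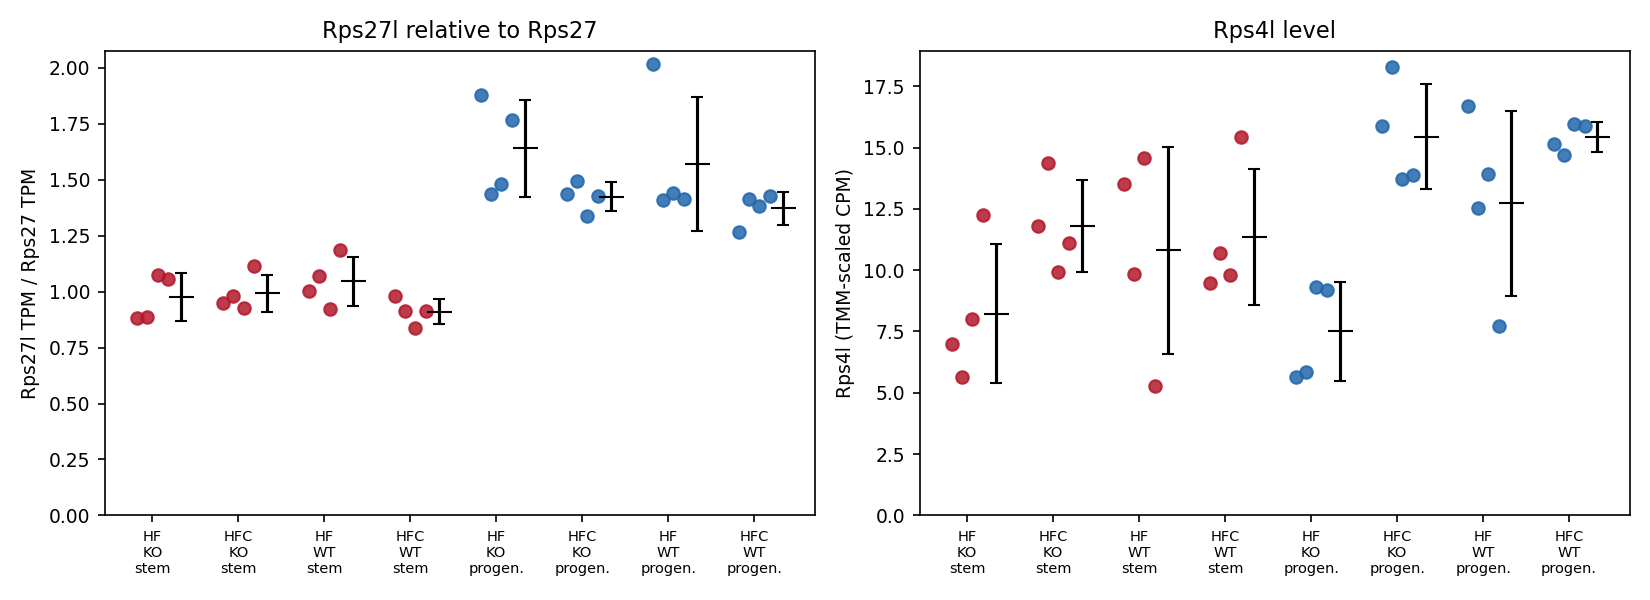
Left, the ratio of Rps27l to Rps27 TPM, and right, the level of Rps4l in TMM-scaled CPM, in 4 libraries of each group with the mean and SD, stem cells in red and progenitors in blue, both axes from 0. Every progenitor ratio (1.27 or more) lies above every stem cell ratio (1.19 or less), and Rps4l is lowest in HF KO progenitors at 7.50 CPM and HF KO stem cells at 8.23 CPM.

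The other comparisons in progenitors called no member. These were HF against HFC in WT mice, beside 0.0883% of genes, KO against WT on the HF diet, beside 0.706%, and KO against WT on the HFC diet, beside 0.257%, with 1, 6 and 1 members at an unadjusted p under 0.05, beside 7.06%, 10.6% and 5.8% of genes. limma called none in these, and DESeq2 called Rps4l lower for KO against WT on the HF diet and none in the others. edgeR called the same 1 there without library d of the HF WT progenitors. The members' medians were -0.04, 0.05 and 0.10, and -0.10 for HF against HFC in KO mice. In that order 19, 57, 69 and 15 of 80 members were positive, beside 50.54%, 51.08%, 52.01% and 49.63% of genes. These signs are not independent either. The median for all genes was within 0.01 of 0 in each. In the 3 comparisons with no call the 95% intervals lay within 1.5-fold for 74, 74 and 75 of 80 members, beside 65.47%, 64.49% and 66.02% of genes. The interaction called no member and no gene (0% background), with 3 members at an unadjusted p under 0.05 beside 4.5% of genes.

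Rps6, the substrate of the S6 kinases downstream of mTORC1, had 253.3, 245.9, 270.7 and 229.1 CPM in HF KO progenitors and 208.5, 216.0, 211.3 and 217.2 CPM in HF WT progenitors. The KO libraries were all above the WT ones, and the log2 fold change of 0.24 ± 0.07 did not pass (adjusted p = 0.213 by edgeR). Rpl39, a small protein that lines the exit tunnel, had 43.4, 35.6, 33.5 and 30.6 CPM in HF KO and 26.2, 22.5, 22.4 and 24.1 CPM in HF WT progenitors, or 0.60 ± 0.23 (adjusted p = 0.327). Rpl22l1 had 33.8 ± 3.13 CPM and 27.4 ± 1.55 CPM (SD, n = 4 each) in the same groups, or 0.31 ± 0.13 (adjusted p = 0.414 by edgeR). These 3 of 80 were the members with all KO libraries above, beside 3.44% of genes. The count lies near that share, and nothing is read from it. Rpl17 also had a small p there, at 0.47 ± 0.15 (adjusted p = 0.234), with overlapping groups. Rps6 shares sequence with pseudogenes that hold 1361.5 counts per library against its own 1290.03, so its level is uncertain.

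Of the stalk, Rplp0, Rplp1 and Rplp2 did not pass in any of the 8 diet and genotype comparisons, and their log2 fold changes lay between -0.17 and 0.15. Rps27l, which differed between the populations, did not pass in them either, with values from -0.0093 to 0.15. The lists around the ribosome gave 0 calls by edgeR in all 8, for the 6 ribosomal proteins outside the rule, the 19 TOP messages, the 44 assembly genes, the 16 genes of mTORC1 and Myc control and the 78 mitochondrial ribosomal proteins. For HF against HFC in WT stem cells all 44 assembly genes and 77 of 78 mitochondrial ribosomal proteins were positive, beside 51.09% of all genes. Their medians were 0.20 and 0.18, beside 0.08 for the cytosolic set and 0.0055 for all genes. These signs need not be independent, because the medians of both lists also shifted between replicate libraries. In that comparison 1 goblet, 1 Paneth and 1 enterocyte marker were called higher on the HF diet, as were 26 of the 12409 genes tested. The part of these markers in the signs above was not tested.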

How the data were processed

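Polyadenylated RNA extracted in TRI reagent was made into libraries with a Clontech kit, per the labels' protocols. The submitters' processing notes name STAR 2.5.3a, RSEM 1.3.0, SAMtools 1.3 and the build mm10, without their roles. The annotation, read length and strand are not given in the sources used here. The authors deposited estimated counts per gene, which need not be whole, and a table of log2 TPM plus 1. Columns carry group names with no replicate number or sex, so libraries were lettered a to d within a group in column order. Per the file headers, serial numbers run in 4 sets of 8 libraries, 1 of each group, which the letters follow. The deviations from group means over all genes correlated best with the library's own run in 30 of 32 libraries. Same-run pairs had r over 0.1 throughout in 7 of 12 comparisons of 2 groups, those of stem cells with progenitors among them, so the runs were fitted as a block as an added alternative.

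Estimated counts were rounded and fitted with edgeR 4.0.16 (R 4.3.3; TMM scaling, filterByExpr with a minimum count of 10, robust quasi-likelihood fit, group means only). Diet and genotype comparisons used the 16 libraries of a population, and comparisons of populations all 32. p-values were adjusted by Benjamini-Hochberg over all genes tested, with a threshold of 0.05. The SE of a log2 fold change was its size divided by the square root of F. CPM are TMM-scaled over 32 libraries. Alternatives were DESeq2 1.42.0, limma 3.58.1 on the deposited log2 TPM, other scaling, filter and pseudocount (0.1), Xist level as a covariate, pseudogene counts added, the 2 groups alone, and each library left out. Scripts were tested on simulated data. Paralog ratios were compared by permutation in scipy 1.17.1. The deposited totals of 3307711 to 7337425 counts set the precision, and intervals do not cover the estimation of shared reads.

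Members and lists were chosen with earlier results of these data known. The text names up to 10 members per direction with the largest change among those passing, where none passed at most 4 by p, the paralogs with their parents, the stalk, and the 5 highest and lowest levels. Rps26, Rpl7a and Rpl22l1 were also named because their libraries did not overlap, and Rpl11 and Polr1a for their identity, all after values were seen. Some genes that the rule would name are not reported here by name, and are left out of the plots of single genes and of the values given per gene, but stay in the fits and counts.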

Additional observations from a re-analysis of the deposited data

Results flagged for a closer look

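Of 120 sets of 4 libraries examined for 1 value far from the other 3, 5 were flagged by a Dixon test at the 95% level, where chance flags about 1 in 20. The number flagged does not exceed that rate, and nothing is read from it. The sets are not independent, because the members move together from library to library. Library c of the HFC WT progenitors, the shallowest of all, held 1.0173% of its counts in the ribosomal protein genes, beside 1.346%, 1.3861% and 1.3932% in the other 3. Rps18 stood at 684.4 CPM in library a of the HF KO stem cells, beside 406.9, 442.3 and 450.7 CPM, in the library where 79 of 80 members were above the group mean.

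In library a of the HF WT progenitors Rps18 stood at 468.3 CPM, beside 380.1, 383.2 and 386.8 CPM. In that library Rps19 stood at 432.5 CPM, beside 347.9, 353.7 and 354.9 CPM. Rpl30 stood at 54.07 CPM in library c of the HFC KO progenitors, beside 74.1, 76.59 and 77.96 CPM, and only 3 of 80 members of that library were above their group mean.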

How the results depend on the processing

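Results for 22 member and comparison pairs were recomputed under every alternative that could be fitted, giving 649 values. Of these 527 kept their direction and their side of the threshold, 118 kept the direction and lost the call, and 4 turned round. The values that turned round were those of Rpl30 (0.086 and 0.0864) and Rpl19 (0.1128 and 0.113), stem cells over progenitors, in limma on log2 TPM plus 1 and plus 0.1. In those fits the median of all genes stood at 0.27 on the log2 scale, against 0.025 by edgeR.

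Counts of members called, stem cells against progenitors, were 60 in limma with either pseudocount over all mice, where edgeR gave 13. Within HF KO, HFC KO, HF WT and HFC WT mice they were 28, 21, 39 and 26 in limma with either pseudocount, where edgeR gave 4, 2, 1 and 4. DESeq2 called 4 in HFC KO and 2 in HF WT mice. Without the filter on low counts the count was 0 in HFC KO, 0 in HF WT and 1 in HFC WT mice. With copies added by name it was 1 in HFC KO, 2 in HF WT and 2 in HFC WT mice. With the Xist level as a covariate it was 4 in HFC KO mice, and with the 2 groups alone 0 in HF KO and 11 in HFC WT mice. For diet in KO progenitors the 2 groups alone gave 0, and for KO against WT on the HF diet in progenitors DESeq2 gave 1. The cause was not tested, other than that fits of 2 groups rest on 8 libraries.

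With each library left out in turn, the count ran from 11 to 23 for stem cells against progenitors, 1 to 5 in HF KO, 0 to 4 in HFC KO, 0 to 2 in HF WT and 2 to 5 in HFC WT mice. It ran from 0 to 1 for diet in KO progenitors and for genotype on the HF diet in progenitors, and was 0 throughout for the other diet and genotype comparisons and for the differences between them. The highest count, 23, came without library a of the HF KO stem cells. Adding pseudogenes by shared sequence was chosen after seeing the data. The ratio of the share of counts in stem cells to that in progenitors was 1.14, and it was 1.24 in TPM and 1.14 with named copies added.

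No paired analysis was possible because the columns carry no labelled replicate number, and the labelled sex could not be a covariate for the same reason. The runs of serial numbers in the headers, 4 of 8 libraries, were fitted as a block instead, chosen after seeing the data. The count was then 19 for stem cells against progenitors over all mice, 5 in HF KO, 4 in HFC KO, 2 in HF WT and 7 in HFC WT mice. The block moved no count of members in the diet and genotype comparisons and lost no call. The depth of 3307711 to 7337425 counts limits the low members most: Rps12 had 19.1 counts per library.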
